A study of Homo sapiens with 44 samples.

Results

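The comparison described here is day 3 against day 0 of the differentiation of H1 cells towards the heart lineage, that is, the net change after the transient response of day 1. It rests on 6 of the 44 libraries of the series, the 3 wells labelled day 3 and the 3 wells labelled day 0, and it was read across the 22955 genes with enough counts, out of 60499 gene identifiers listed. H1 is an established human embryonic stem cell line. All 6 wells were coated with the laminins LN-521 and LN-221, basement-membrane proteins that cells bind through integrins. Day 0 wells were kept in Nutristem, a medium for pluripotent cells. Day 3 wells had been moved to RPMI 1640 with a B27 supplement that lacks insulin, and had received CHIR99021, a small molecule that switches on the Wnt pathway by blocking GSK3. Wnt secretion was blocked with IWP2 from day 3, and the labels list the day 3 wells with the CHIR99021 medium and not with the IWP2 medium. Medium, insulin, CHIR99021 and time in culture changed together and cannot be told apart. The 3 day 1 wells, which had the day 3 medium, are used only to show where a gene stood in between. The wells are cultures of 1 line, so p-values measure the spread between wells, here estimated over all 44 libraries and not these 6 alone.

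In the embryo, Wnt, Nodal and BMP signals draw pluripotent epiblast cells into the primitive streak, where the T-box factors TBXT and EOMES are made. Cells that leave the streak lose epithelial contacts and become mesoderm or definitive endoderm, and MESP1 marks the earliest heart-forming mesoderm. In culture, GSK3 inhibition is the usual way to start the same sequence in pluripotent cells. RNA was measured in bulk, so fewer cells of a type and less RNA per cell cannot be told apart.

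The 6 libraries held between 24927958 and 28554017 estimated counts and 17023 to 17974 genes with at least 10 counts. RNA integrity numbers were 9.6 to 10, and mitochondrially encoded genes took 0.271% to 0.425% of counts. Protein-coding genes took 85.07 ± 0.107% of counts at day 0 and 88.4 ± 0.846% at day 3 (SD, n = 3 each). Wells differed more at day 3 than at day 0, with a biological coefficient of variation of 14.1% against 7.88%. Day 0 wells were sequenced on lanes 1, 3 and 4 and day 3 wells on lanes 1, 2 and 3. Levels are CPM, counts scaled to library size and composition, and 3 counts correspond to 0.0998 to 0.119 CPM, the smallest level taken as shown.

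A gene was called when its adjusted p in edgeR's quasi-likelihood test was under 0.05 and it changed by 1 or more log2 units. Day 3 differed from day 0 in 3803 of 22955 genes (16.6%), with 1792 higher (7.81%) and 2011 lower (8.76%). The CPM ranges of the 2 days did not overlap for 3778 of the 3803 called genes, a separation that the call itself selects for and that is no further support. Higher genes made up 47.1% of the calls on counts and 71.4% on TPM. Among genes averaging at least 10 TPM over the 6 wells, the log2 change on TPM exceeded that on counts by a median of 0.27. At a log2 change of at least 2 in size 980 called genes were higher and 1041 lower. A log2 change of at least 4 was found for 344 called genes and of -4 or lower for 242, and 108 genes reached 6 while 54 reached -6. Among 16855 protein-coding genes 1436 were higher and 1660 lower, and among 1538 lincRNA genes 111 were higher and 111 lower.

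**Figure D1:**
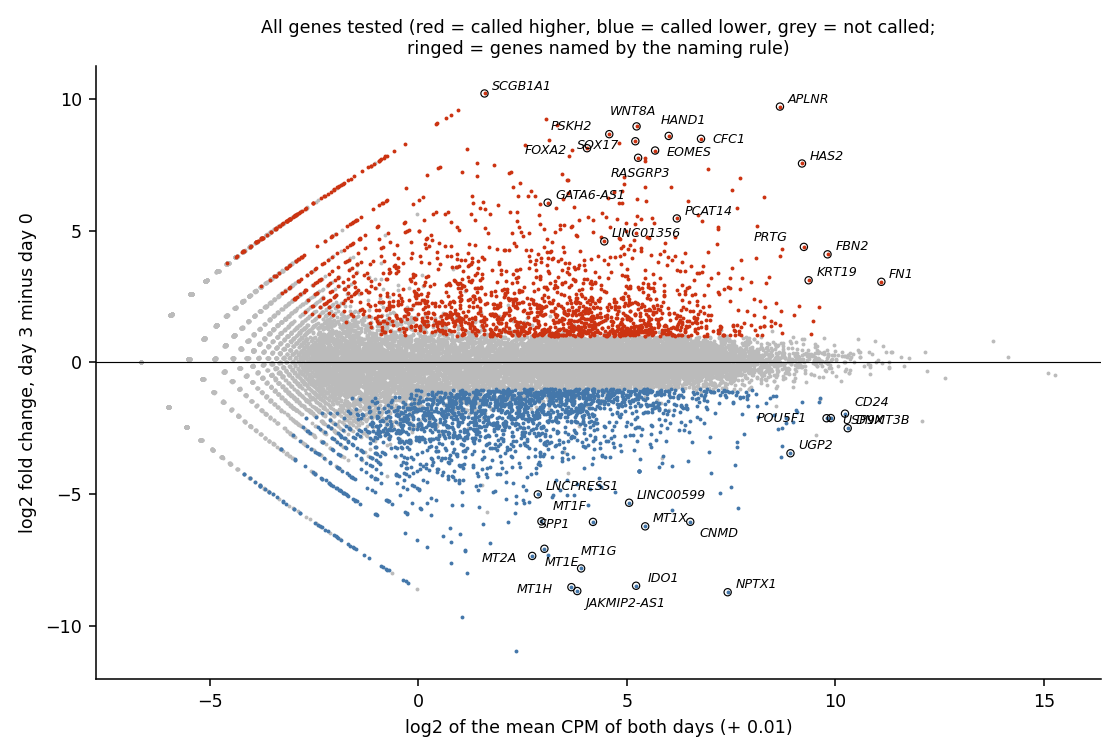
Each dot is 1 of 22955 genes, with the log2 of its mean CPM over both days (plus 0.01) on the horizontal axis and its log2 fold change, day 3 minus day 0, on the vertical axis. Red genes are called higher (1792), blue genes lower (2011) and grey genes are not called. The ringed genes are those named by the naming rule, with APLNR at 9.70 and NPTX1 at -8.71.

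MESP1, the early cardiac mesoderm factor (ENSG00000166823), was at 0, 0.366 and 0.207 CPM in the day 0 wells, at 0.809, 1.16 and 0.841 at day 1, and at 16.4, 29.04 and 26.1 at day 3. All day 3 wells lay far above all day 0 wells, with a log2 change of 6.92 (SE 0.74, adjusted p = 2.6e-09). POU5F1, the core pluripotency factor also called OCT4, was at 1384, 1470 and 1450 CPM at day 0 and at 305, 321 and 367 at day 3. It fell by 2.12 on the log2 scale (SE 0.58, adjusted p = 0.0053) and remained among the well-measured genes of every day 3 well. NANOG, its partner factor, was at 100, 121 and 99.9 CPM at day 0, higher at day 1 (158, 180 and 158), and at 6.95, 7.97 and 12.1 at day 3, a fall of 3.57 (SE 0.39). LEF1, a DNA-binding partner of beta-catenin, rose from 1.745, 2.13 and 1.62 CPM to 90.2, 83.3 and 65.2, a log2 change of 5.44 (SE 0.40). Mesoderm genes thus rose, but the day 3 wells also held raised endoderm genes, described with the other cell types, and POU5F1 transcripts.

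Of the 15 pluripotency factors 13 fell, none rose, and LIN28A and SALL4 were not called (list median -2.21, against 0.02 for all genes tested). Their loss was uneven. PRDM14, a repressor that guards the pluripotent state, went from 128, 146 and 121 CPM to 2.82, 2.76 and 2.49, and had reached 3.27, 3.08 and 3.58 by day 1. SOX2, the third core factor, went from 311, 294 and 270 CPM through 48.4, 29.2 and 53.2 at day 1 to 7.51, 7.63 and 13.3, a fall of 4.94 (SE 0.87, adjusted p = 3.5e-05). PRDM14 was thus already low at day 1, while SOX2 was at an intermediate level then. ESRG, a non-coding RNA of pluripotent cells, fell by 4.21 (SE 0.37) and FOXD3, a forkhead factor, by 3.99 (SE 1.05). DPPA4, a chromatin protein of early embryonic cells, fell by 2.10 (SE 0.36) and ZFP42, a zinc finger factor also called REX1, by 1.12 (SE 0.25). The call of ZFP42 was lost on TPM (adjusted p = 0.0909), where 9 of the 13 list members tested fell. The RNA-binding protein gene LIN28A was at 1942, 1918 and 1912 CPM at day 0 and 1687, 1669 and 1743 at day 3, a change of -0.18 (SE 0.30, adjusted p = 0.72). The zinc finger factor SALL4 changed by 0.08 (SE 0.27), with day 3 wells at 298, 360 and 356 CPM around the day 0 wells at 315 to 324.

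Of the 12 primitive streak factors 9 rose and none fell (median 5.51). The streak genes were past their day 1 level, yet still above day 0. TBXT, the brachyury factor, was at 0.470, 0.200 and 0.311 CPM at day 0, at 292, 369 and 272 at day 1, and at 21.1, 20.1 and 17.1 at day 3. Its net log2 change was 5.87 (SE 0.64), made of a day 1 rise of 9.87 and a later change of -3.998. MIXL1, a homeobox factor of the streak, ran from 1.17, 0.599 and 0.760 CPM through 272, 466 and 200 to 26.02, 40.2 and 40.9, a net change of 5.39 (SE 0.60). EOMES, which directs both mesoderm and endoderm, kept more of its day 1 level, at 59.7, 97.7 and 148 CPM at day 3 against 291, 372 and 268 at day 1 and under 1 CPM at day 0. The homeobox genes CDX1 (log2 change 5.63) and CDX2 (6.65) and the organizer factor GSC (4.43) had the same course. EVX1 had 3 counts in all at day 0 and stood at 8.14, 7.15 and 5.55 CPM at day 3. LHX1, a LIM homeobox factor of anterior streak and mesoderm, took another course: 0.738 to 1.04 CPM at day 0, 1.06 to 1.61 at day 1, and 27.1, 64.4 and 73.7 at day 3.

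Of the 17 cardiac and lateral mesoderm genes tested 16 rose and none fell, with a median log2 change of 6.11. Each of the 19 alternatives run also called 16 of them. APLNR, the apelin receptor of migrating mesoderm, was at 0.973, 0.566 and 1.38 CPM at day 0, 7.48, 9.00 and 8.34 at day 1, and 615, 938 and 885 at day 3. HAND1, a basic helix-loop-helix factor of the heart fields, rose from 0.268, 0.333 and 0.380 CPM to 134, 142 and 107, a log2 change of 8.59 (SE 0.71, adjusted p = 6.1e-12). It had been at 0.467 to 0.640 CPM at day 1, so nearly the whole rise came after that day. PDGFRA, a growth factor receptor used to sort cardiac mesoderm, was at 8.86, 6.19 and 8.74 CPM at day 0, lower at day 1 (3.98, 4.56 and 4.05), and at 738, 602 and 512 at day 3. The zinc finger factors GATA4 and GATA6 were higher on each successive day. GATA4 went from 0.571 to 0.760 CPM through 13.0 to 15.7 to 55.9, 58.8 and 59.9, and GATA6 from 0.242 to 0.499 through 2.80 to 9.19 to 88.0, 88.2 and 82.0. MESP2, the paralogue of MESP1, rose by 5.51 (SE 0.70), with day 3 wells at 15.7, 41.1 and 41.1 CPM. Factors of later heart fields rose as well, with ISL1 at 25.8, 24.8 and 24.9 CPM (log2 change 5.18), TBX20 at 10.8, 12.2 and 11.1 (4.26), and HAND2 at 20.0, 5.92 and 5.85 (4.95). MYOCD, a coactivator of muscle genes, rose by 3.43 (SE 0.39) to 38.5, 16.7 and 10.1 CPM, with well 1 highest, as for HAND2. The exception was KDR, the VEGF receptor often used as a mesoderm marker. It was at 201, 166 and 174 CPM at day 0 and 377, 287 and 270 at day 3, a change of 0.79 (SE 0.41, adjusted p = 0.16) without overlap of the wells.

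Paraxial mesoderm genes, which pattern the future somites, were called higher for 8 of 13 members and lower for none (median 3.05). TBX6 rose from 2.21, 2.33 and 2.00 CPM to 21.7, 45.1 and 32.9, and the forkhead factor FOXC1 from 0.336, 0.832 and 0.483 to 30.4, 69.3 and 82.0 (log2 change 6.77, SE 0.66). DLL3, a Notch ligand of somite precursors, reached 58.4, 100 and 77.6 CPM from about 7. MSGN1, at 0 counts in all day 0 wells and 1.55, 0.819 and 0.679 CPM at day 3, was at least 10.0-fold higher against the floor of 3 counts per well, a call that DESeq2 did not make (adjusted p = 0.0665). The later somite genes MEOX1 (0.151 to 0.410 CPM at day 3), TCF15 and PAX3 were not called.

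**Figure D2:**
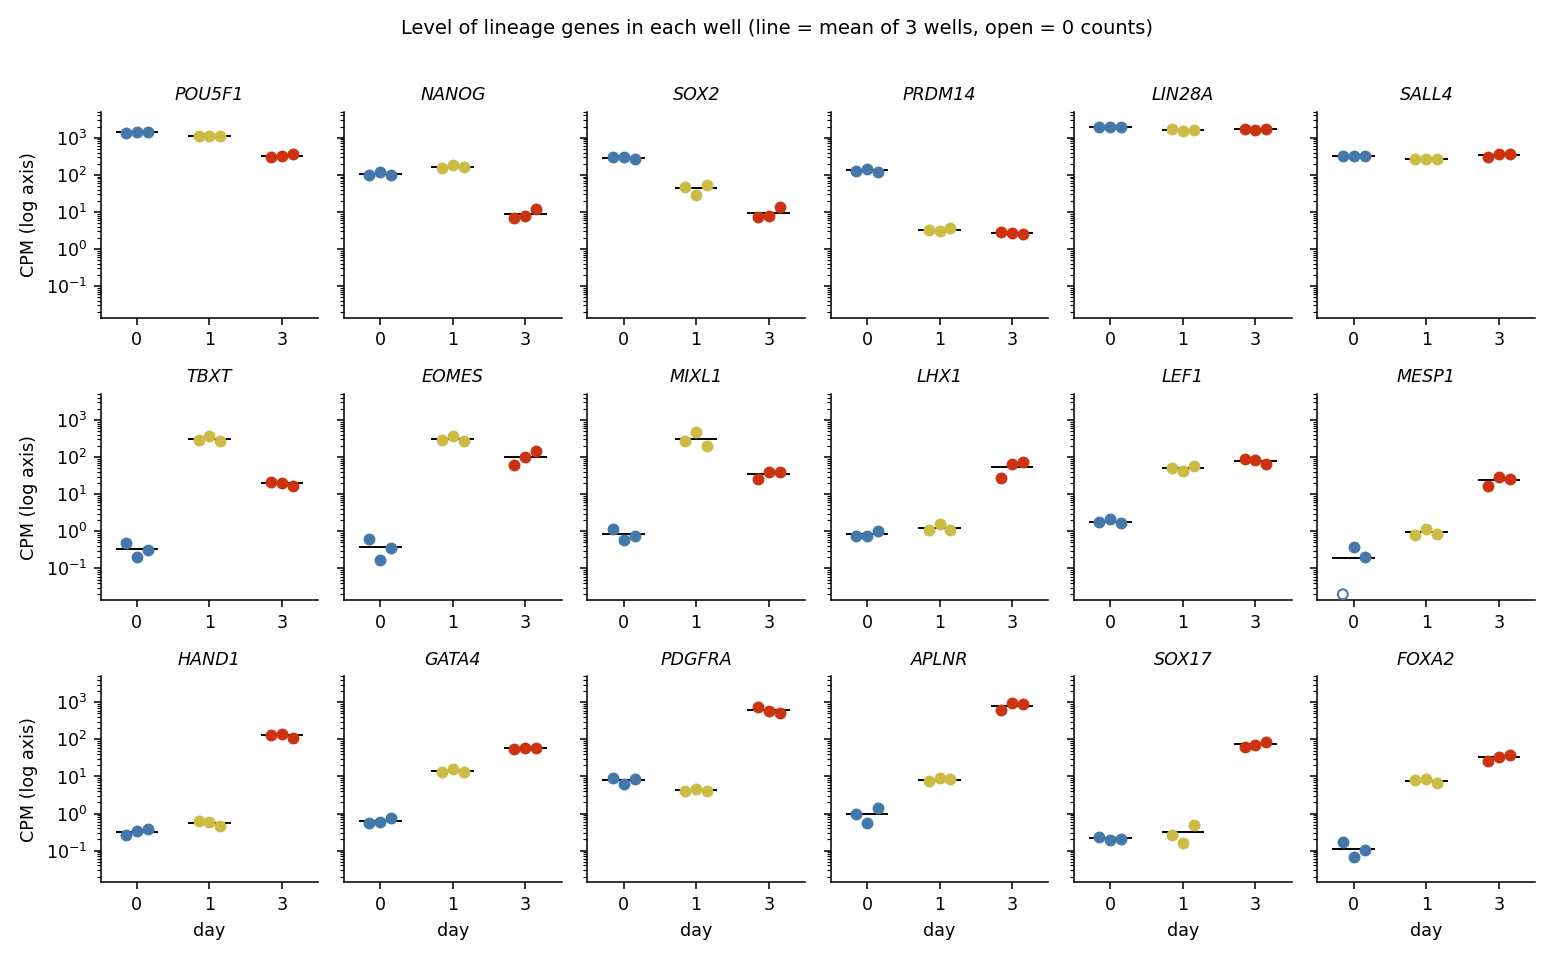
Level in CPM (log axis) of 18 lineage genes in each well at days 0, 1 and 3, with a line at the mean of 3 wells and an open circle for a well with 0 counts. PRDM14 was low from day 1, TBXT and MIXL1 peaked at day 1, and HAND1, PDGFRA and SOX17 were high only at day 3. LIN28A and SALL4 stayed near their day 0 level.

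Genes of other cell types were read the same way. Definitive endoderm genes rose for 10 of 14 members and fell for none (median 4.12). SOX17, the factor that defines early endoderm and also some endothelium, went from 0.235, 0.200 and 0.207 CPM to 62.7, 70.9 and 86.6, a log2 change of 8.39 (SE 0.66), from a day 1 level of 0.161 to 0.498. FOXA2, shared by endoderm and axial mesoderm, was at 0.0665 to 0.168 CPM at day 0, 6.63 to 8.64 at day 1, and 25.9, 34.3 and 38.2 at day 3. CXCR4, a chemokine receptor of endoderm and mesoderm, reached 34.0, 60.2 and 66.9 CPM (log2 change 4.72, SE 0.91), and the endoderm factor FOXA1 (6.52) rose too. HNF4A rose by 5.69 (SE 1.14) to 7.99, 7.97 and 11.0 CPM, a call lost on log2(TPM + 1) (adjusted p = 0.145). The summed level of the 14 endoderm genes was 45.4 to 51.4 CPM in the day 0 wells and 249 to 369 in the day 3 wells. That of the 18 cardiac and lateral mesoderm genes was 188 to 227 and 2394 to 2701 CPM. The liver genes TTR (0.415 to 1.01 CPM at day 3) and AFP were not called. What part cells of the endoderm lineage had in the other changes was not tested.

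Ectoderm genes rose for none of 14 members and fell for 3, namely SOX3, POU3F1 and HESX1 (median -0.74). That is 21.4% of the list, near the 16.6% of all genes. Fitted on the 6 libraries alone, 1 of 11 members tested was called higher and 6 lower, among 4466 genes called in all. The calls added there were TFAP2A (1.43), higher, and TFAP2C (-1.46), SIX3 (-2.52) and LHX2 (-1.01), lower. POU3F1, a POU factor of neural epiblast, dropped from 6.24, 7.45 and 8.53 CPM to 0.278, 0.633 and 0.679, and OTX2, a head and epiblast factor, was at 36.2, 66.7 and 110 CPM at day 3 around its day 0 wells at 54.9 to 67.1. The summed level of the list was 148 to 165 CPM at day 0 and 85.5 to 180 at day 3. Of 11 extraembryonic genes tested, GATA2, GATA3, KRT18 and HAPLN1 rose and KRT7 fell. GATA3, a factor of trophectoderm that other tissues also make, went from 0.369, 0.200 and 0.138 CPM to 9.46, 9.79 and 10.7, and KRT7, a trophoblast keratin, from 11.7, 12.3 and 9.12 to 0.278, 0.372 and 0.604. HAPLN1, a hyaluronan link protein, rose by 5.19 (SE 0.39) to 827, 415 and 394 CPM, with well 1 above the others. The placental hormone gene CGA was at 0 to 0.112 CPM at day 3.

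Of 12 blood and endothelial genes only RUNX1 (3.00, SE 0.77) and PECAM1 (2.57, SE 0.83) were called higher, 16.7% of the list against 16.6% of all genes. PECAM1 stood at 1.51, 1.49 and 2.08 CPM, and its call was lost without day 0 well 2 or 3 or day 3 well 3 (adjusted p 0.0589 to 0.1004). Without day 3 well 3, 1 member of the list was called lower. Fitted on the 6 libraries alone, 9 members were tested, with 3 called higher and 2 lower, TEK (-1.31) and ERG (-1.47). TAL1 and CDH5, which define blood and endothelial cells, were at 0.0745 to 0.437 and 0.604 to 1.11 CPM at day 3. Of 12 cardiomyocyte sarcomere genes 3 rose and none fell, 25% of the list against 16.6% of all genes called. MYL4, an atrial myosin light chain, went from 2.72, 3.46 and 3.28 CPM to 55.9, 16.6 and 12.0, and TNNC1, cardiac troponin C, from 3.46, 4.56 and 3.56 to 31.3, 21.6 and 26.1. The third, the troponin gene TNNI1 (1.504), lost its call without day 0 well 1 or 3 or day 3 well 2 (adjusted p 0.0506 to 0.0834). Fitted on the 6 libraries alone, 5 members rose, with MYL7 (1.16) and TTN (1.24) added. TNNT2, cardiac troponin T, was at 5.91, 7.29 and 7.39 CPM at day 0 and 2.98, 5.92 and 6.04 at day 3, and NKX2-5, the early cardiomyocyte factor, at 0.705 to 1.06 and 0.335 to 0.914. Each of these wells held 0.0596% to 0.140% of the TNNT2 counts of its sequencing lane, which also carried wells of later days, and whether reads of those wells contributed was not tested.

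**Figure D3:**
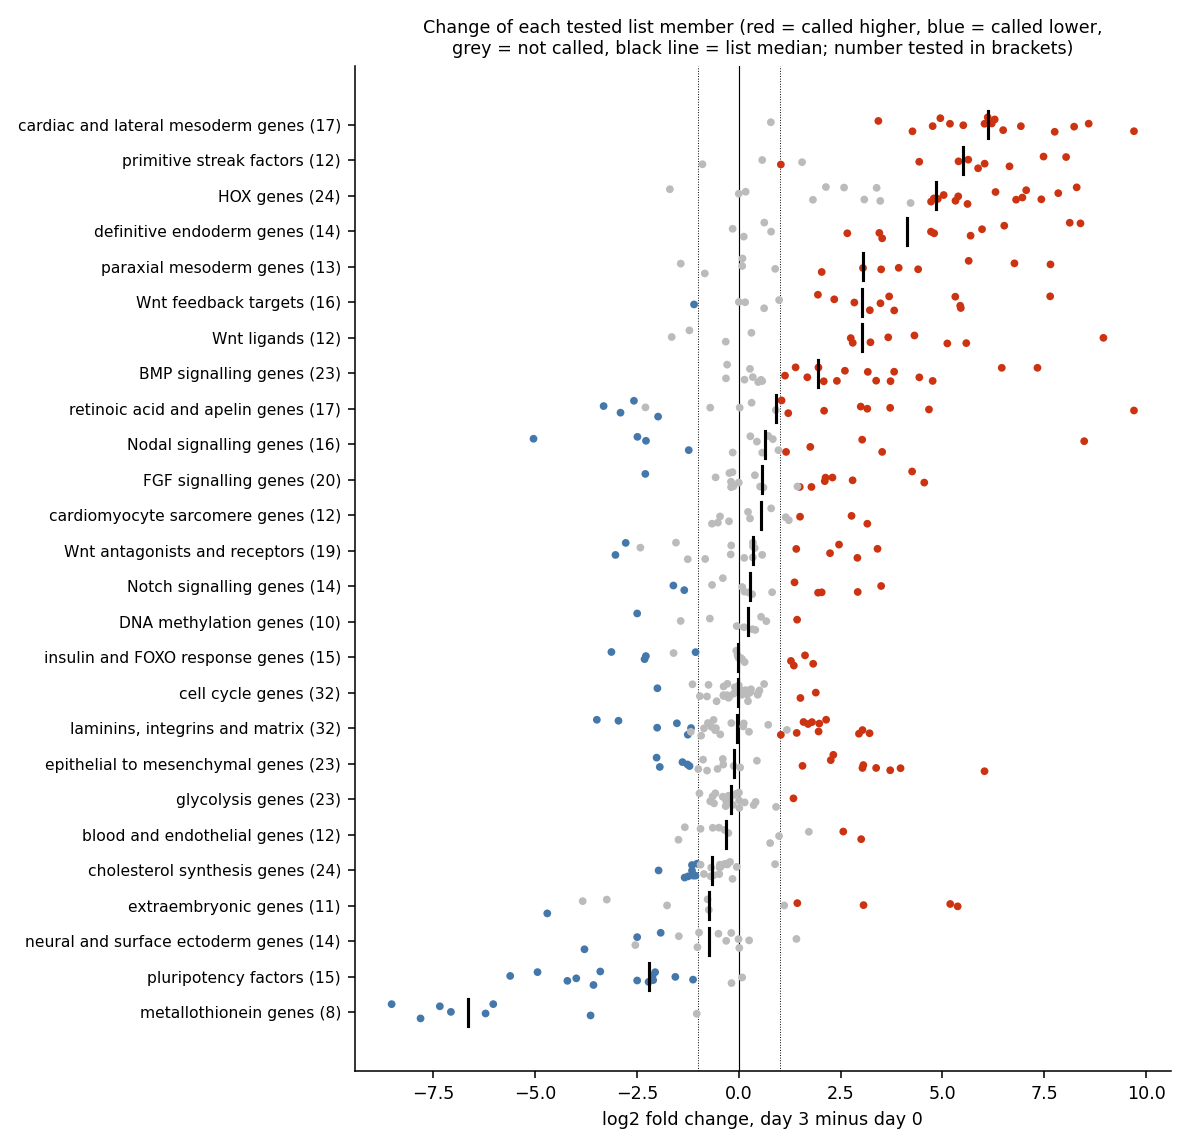
Log2 fold change, day 3 minus day 0, of every tested member of the 26 gene lists (horizontal axis), with red for called higher, blue for called lower, grey for not called and a black line at the list median. Cardiac and lateral mesoderm genes (median 6.11) lie highest and metallothionein genes (median -6.64) lowest. In all 215 of 438 tested list genes, each counted once, were called, 153 higher and 62 lower.

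Wnt signalling was read through its target genes, ligands and receptors. Wnt feedback targets are genes that beta-catenin induces together with TCF and LEF factors and that often dampen the pathway. Of 16 such genes 11 were higher at day 3, 1 was lower and 4 were not called (median 3.03). AXIN2, the standard readout, was at 55.0, 51.4 and 53.2 CPM at day 0, 320, 244 and 337 at day 1, and 53.0, 58.5 and 48.3 at day 3. The day 3 and day 0 wells overlapped, with a difference of 0.00 (SE 0.20). CCND1, cyclin D1, ran from 70.5, 80.9 and 78.3 CPM through 485, 405 and 502 to 123, 116 and 114, a net change of 0.62 (SE 0.25, adjusted p = 0.061). Others kept part of their day 1 level. SP5, a zinc finger repressor, was at 1.44, 1.03 and 1.14 CPM, then 271, 248 and 270, then 49.1, 57.2 and 52.4, a net log2 change of 5.45 (SE 0.53). The secreted antagonist DKK1 was at 2.21, 2.16 and 2.31 CPM, then 150, 224 and 139, then 26.6, 28.9 and 31.2. DKK4, its relative, fell back almost fully, from 36.6, 71.4 and 33.1 CPM at day 1 to 0.318, 0.894 and 0.717, above a day 0 level of 1 count in all. LGR5, the R-spondin receptor, was low until day 3, at 0.276 to 0.532 CPM at day 0, 1.12 to 1.90 at day 1 and 112, 73.9 and 73.4 at day 3 (log2 change 7.64, SE 0.61). BAMBI, a decoy receptor, rose to 217, 129 and 114 CPM (3.48, SE 0.23). The single lower gene, NKD2 (-1.10), lost its call without day 0 well 1, 2 or 3 or day 3 well 1 or 3 (adjusted p 0.0538 to 0.101).

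The stretches upstream of Wnt feedback targets and primitive streak factors are shown for the letters that TCF and LEF factors are known to prefer. Not all members of these lists were called. CTTTGAT and CTTTGAA were searched on both strands in the 250 bases before each RefSeq start (GRCh38.p14), where the other strand reads ATCAAAG and TTCAAAG. Of the Wnt feedback targets 9 were matched, with 12 windows, and 2 windows held a match, those of SP5 and DKK1. Of the primitive streak factors 8 were matched, with 9 windows, and 4 held a match, those of TBXT, MIXL1, CDX2 and SP8. SP8 itself was not called. In all 34943 windows, 5.958% held at least 1 match and 0.02003% at least 3. SP5 had 3 and the others 1 each. A match is a description of letters, not a binding site. The windows of SP5 (chr2:170715087-170715336, plus strand), DKK1 (chr10:52314031-52314280, plus strand), MIXL1 (chr1:226223414-226223663, plus strand) and TBXT (chr6:166167852-166168101, minus strand) follow, 5′ to 3′, with matches in capitals.
SP5: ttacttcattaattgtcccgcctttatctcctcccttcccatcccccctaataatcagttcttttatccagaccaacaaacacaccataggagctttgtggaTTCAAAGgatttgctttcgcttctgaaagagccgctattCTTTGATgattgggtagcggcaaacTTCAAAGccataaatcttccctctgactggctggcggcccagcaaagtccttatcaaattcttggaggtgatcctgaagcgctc
DKK1: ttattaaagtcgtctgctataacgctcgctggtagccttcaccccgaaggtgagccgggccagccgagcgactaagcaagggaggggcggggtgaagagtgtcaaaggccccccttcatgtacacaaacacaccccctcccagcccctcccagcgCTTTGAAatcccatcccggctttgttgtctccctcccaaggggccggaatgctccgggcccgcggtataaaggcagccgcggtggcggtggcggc
MIXL1: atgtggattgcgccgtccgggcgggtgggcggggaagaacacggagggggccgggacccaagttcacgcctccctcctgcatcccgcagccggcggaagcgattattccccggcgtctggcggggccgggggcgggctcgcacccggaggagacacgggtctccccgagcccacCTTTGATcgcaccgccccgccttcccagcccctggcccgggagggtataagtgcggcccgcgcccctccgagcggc
TBXT: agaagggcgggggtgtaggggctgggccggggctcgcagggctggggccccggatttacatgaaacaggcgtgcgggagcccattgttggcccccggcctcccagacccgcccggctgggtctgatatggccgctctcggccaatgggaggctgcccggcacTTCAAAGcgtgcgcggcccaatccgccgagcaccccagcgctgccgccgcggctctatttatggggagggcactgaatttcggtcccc

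Of 12 Wnt ligand genes 8 rose and none fell (median 3.01). WNT8A, a ligand of the early streak, was at 0.168, 0.133 and 0.138 CPM at day 0, 3.77 to 5.69 at day 1, and 67.3, 78.1 and 79.5 at day 3, a log2 change of 8.95 (SE 0.68). WNT3, the ligand that starts the streak in the mouse, reached 35.2 to 45.2 CPM at day 1 and held 39.7, 52.6 and 49.0 at day 3. WNT5A, a ligand of the beta-catenin-independent branch, was at 5.85 to 7.69 CPM at day 1 and at 197, 217 and 200 at day 3 (5.58, SE 0.32). WNT5B ran the other way, from 99.2, 62.4 and 110 CPM at day 1 to 21.0, 11.9 and 7.92. Per transcript length the day 3 order was WNT8A, WNT5A and WNT3. Their levels were 38.3 ± 5.74, 31.01 ± 3.23 and 11.5 ± 1.76 TPM (SD, n = 3 each). The means ± SD of the first 2 overlapped, and their order within wells was not tested. Wnt antagonists and receptors rose for 5 of 19 members, fell for 2 and were not called for 12 (median 0.34). WIF1, among the falls, lost its call without day 3 well 1 or 3 (adjusted p 0.0509 to 0.0628). FZD5, a Frizzled receptor, went from 162, 176 and 163 CPM to 12.3, 18.6 and 30.6 (-3.03, SE 0.53). FZD2 rose from 11.1, 13.1 and 12.3 to 53.6, 65.4 and 53.6, and ROR2, a WNT5A receptor, from 16.98, 18.5 and 17.9 to 170, 196 and 200 (3.41, SE 0.29). SFRP1, a secreted antagonist, was at 298, 261 and 285 CPM at day 0, 22.7, 9.99 and 24.3 at day 1, and 279, 365 and 428 at day 3. Its net change of 0.35 (SE 0.32) was not called.

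Nodal signalling needs a TGF-beta ligand, a co-receptor of the EGF-CFC family and SMAD proteins. Of 16 genes of this list 5 rose, 4 fell and 7 were not called (median 0.65). PMEPA1, among the falls, lost its call when any 1 of the 6 wells was left out (adjusted p 0.0765 to 0.148). NODAL, the ligand, was at 5.30, 6.32 and 6.32 CPM at day 0, at 314, 319 and 290 at day 1, and at 10.8, 2.87 and 2.49 at day 3, with overlapping wells and a net change of -0.15 (SE 0.42). The 2 co-receptors moved in opposite directions. TDGF1, also called CRIPTO, fell from 760, 709 and 691 CPM to 79.4, 111 and 194, a change of -2.49 (SE 0.59, adjusted p = 0.0014). CFC1, also called CRYPTIC, rose from 0.571, 0.799 and 0.449 CPM to 246, 238 and 171, a change of 8.48 (SE 0.59), although the near-identical copy CFC1B makes its count uncertain. LEFTY1, a feedback inhibitor, went from 15.1, 16.8 and 22.6 CPM to 0.596, 0.596 and 0.453, while its close copy LEFTY2 was at 8.05, 11.7 and 9.84 and 4.89, 19.4 and 28.6. LEFTY2 was called only without day 3 well 1 (log2 change 1.28, adjusted p = 0.0453). CER1, a secreted inhibitor of anterior endoderm, kept its day 1 level, with 21.9, 25.6 and 40.4 CPM at day 3 against 2.03 to 2.90 at day 0. SMAD3, the signal transducer, rose to 48.1, 53.5 and 47.5 CPM from 13.7, 15.3 and 15.1.

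BMP signalling genes rose for 15 of 23 members and fell for none (median 1.96). BMP4, the ligand that patterns mesoderm, was at 5.54, 5.19 and 4.49 CPM at day 0, 9.80, 2.70 and 12.2 at day 1, and 158, 142 and 112 at day 3 (4.76, SE 0.37, adjusted p = 1.1e-12). BMP2 was higher on each day, with 6.89 to 7.49 CPM, then 30.0 to 49.4, then 83.1, 105 and 112. Other members that rose lie downstream of the ligands. ID2, an inhibitor of helix-loop-helix factors, went from 22.3, 22.7 and 19.8 CPM to 146, 114 and 135, the homeobox gene MSX1 from 0.805, 0.433 and 0.483 to 56.1, 52.9 and 43.4, and the inhibitory SMAD6 from 9.16, 9.05 and 7.87 to 98.1, 93.5 and 78.8. BMPER, a secreted BMP-binding protein, had the largest rise of the list, from 1.745, 1.16 and 1.62 CPM to 280, 244 and 209 (7.33, SE 0.43). The extracellular antagonist FST was high at day 1 only, at 439, 264 and 421 CPM between 14.9 to 20.4 at day 0 and 19.3 to 23.2 at day 3. The receptor genes BMPR1A (-0.29) and BMPR1B (0.48) were not called.

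Of 20 FGF signalling genes 8 rose and FGF2 alone fell (median 0.56). FGF2, which pluripotent cells make and need, went from 203, 191 and 178 CPM to 42.9, 34.7 and 38.9 (-2.29, SE 0.23). FGF17, a streak ligand, kept much of its day 1 level, at 11.3, 17.2 and 24.8 CPM against 0.414 to 0.932 at day 0. FGF19 and FGF18 were high at day 1, and their day 3 wells overlapped their day 0 wells, with net changes of -0.19 (SE 0.84) and -0.13 (SE 0.69). The receptor FGFR3 was at 30.9, 30.7 and 29.5 CPM at day 0, 5.33 to 6.85 at day 1 and 138, 134 and 121 at day 3 (2.11, SE 0.31). DUSP6, a phosphatase induced by ERK signalling, rose from 30.0, 33.3 and 35.8 CPM to 148, 89.3 and 104. In the Notch list 5 of 14 tested genes rose, among them the ligands DLL1 and DLL3 and the target HES1 (10.4, 11.7 and 12.1 to 39.7, 45.3 and 46.9 CPM), and JAG2 and NRARP fell. On log2(TPM + 1) 4 of 13 rose and none fell. The rise of JAG1 lost its call without day 0 well 1, 2 or 3 or day 3 well 2 or 3 (adjusted p 0.0773 to 0.0928).

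**Figure D4:**
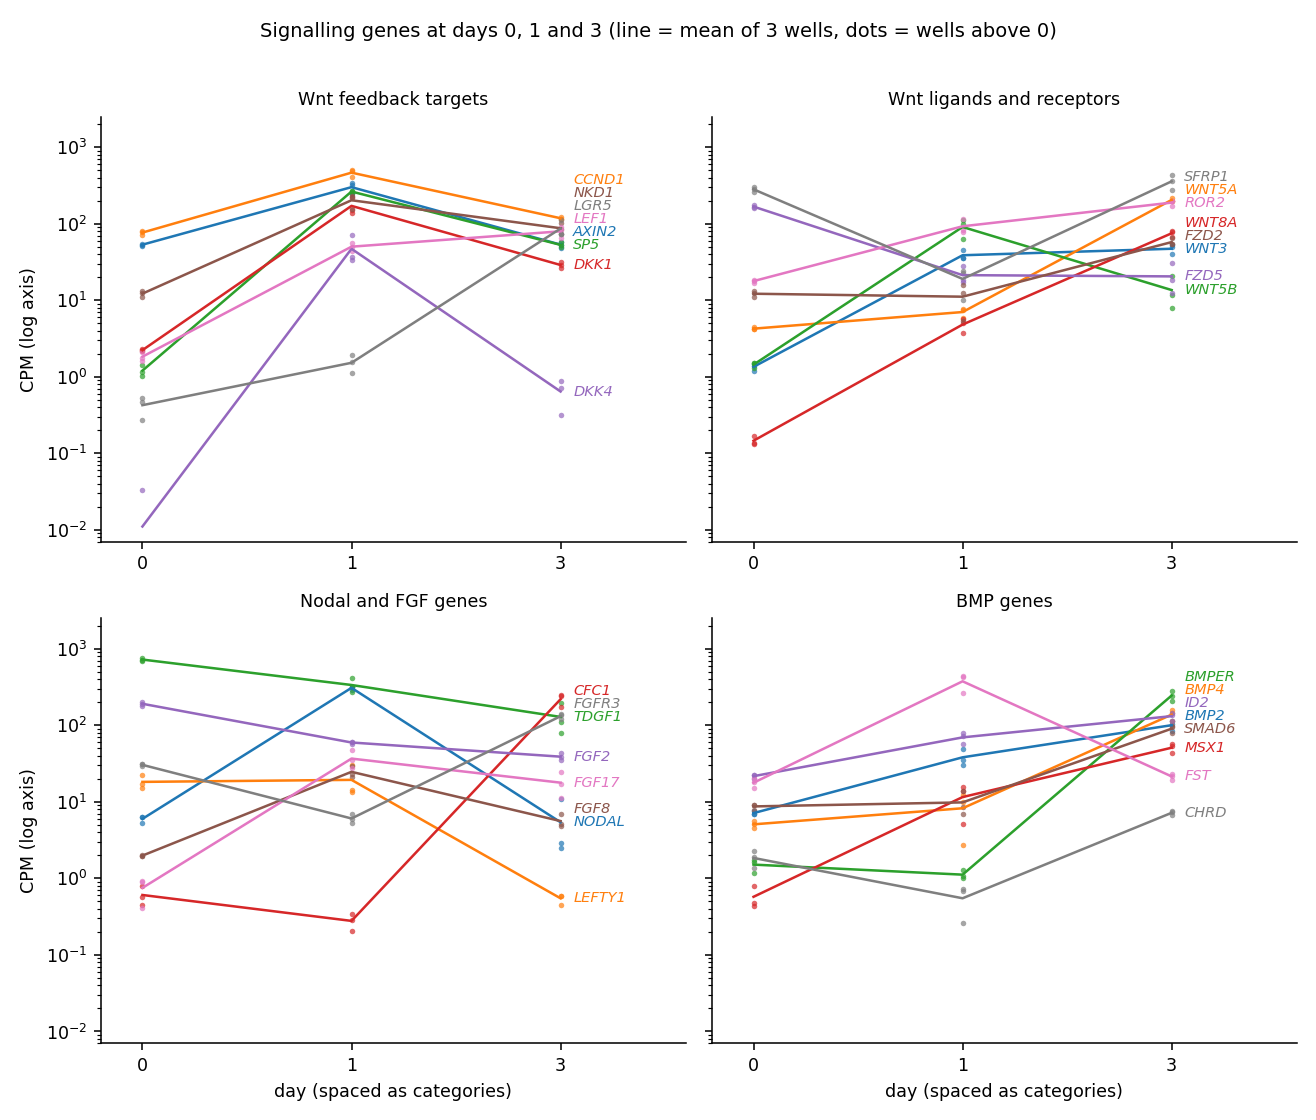
Mean CPM (lines, log axis) and wells above 0 (dots) of 32 signalling genes at days 0, 1 and 3, spaced as categories, in 4 panels. AXIN2, NODAL and FST peak at day 1 and end near day 0, SP5, DKK1 and WNT5B keep part of the rise, and LGR5, WNT5A, CFC1, BMP4 and BMPER are highest at day 3.

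In the retinoic acid and apelin list 8 of 17 genes rose and 4 fell (median 0.91). Retinoic acid, made by ALDH1A enzymes and removed by CYP26 enzymes, patterns the heart tube along its length. ALDH1A2, the main enzyme of mesoderm, rose from 0.571, 0.433 and 0.587 CPM to 11.3, 6.52 and 3.25 (3.72, SE 0.91). CYP26A1, which degrades retinoic acid, rose from 6.61, 6.29 and 6.70 to 29.2, 52.2 and 93.2 (3.15, SE 0.66). In well 1 ALDH1A2 was highest and CYP26A1 lowest, and in well 3 the order was reversed. The receptor RARB rose from 0.403 to 0.863 CPM to 21.8, 15.3 and 11.5, and the binding protein CRABP2 from 74.7, 70.1 and 71.3 to 570, 582 and 570. Against the rise of the apelin receptor, both of its ligands fell. APELA went from 155, 136 and 132 CPM to 7.28, 4.66 and 7.97 at day 1 and 45.1, 13.6 and 12.4 at day 3 (-2.57, SE 0.61), and APLN from 2.85, 3.13 and 2.55 to 0.318, 0.223 and 0.302.

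Genes of the epithelial to mesenchymal transition, the loss of cell contacts on leaving the streak, rose for 9 of 23 members and fell for 5 (median -0.12). On log2(TPM + 1) 9 rose and 1 fell. SNAI2, a repressor of E-cadherin, rose from 1.17, 0.799 and 0.656 CPM to 55.3, 58.7 and 59.2, and SNAI1 from 4.90, 3.39 and 4.04 to 25.5, 38.9 and 36.9. N-cadherin (CDH2) rose from 99.7, 96.1 and 94.4 CPM to 453, 440 and 556, and had reached 294 to 400 at day 1. CDH11, a mesenchymal cadherin, rose from 32.0, 33.2 and 33.6 to 568, 502 and 480 (3.97, SE 0.51). E-cadherin (CDH1) was at 311, 348 and 312 CPM at day 0 and 135, 151 and 202 at day 3, without overlap, but its change of -0.99 (SE 0.47, adjusted p = 0.12) did not pass the test. EPCAM, an epithelial adhesion protein, was at 128, 121 and 129 and 139, 152 and 224 CPM (0.44, SE 0.45). The intermediate filament gene VIM rose by 1.56 (SE 0.27) to 1572, 875 and 717 CPM.

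Of the 5 protein-coding genes with the largest gain in CPM, FN1, FBN2 and HAS2 make extracellular matrix or its components. FN1, fibronectin, went from 500, 467 and 446 CPM to 3976, 3773 and 4010, a log2 change of 3.06 (SE 0.39, adjusted p = 1.5e-07), and its receptor subunit ITGA5 from 41.0, 42.1 and 43.8 to 299, 427 and 449. FBN2, a fibrillin of elastic microfibrils, went from 98.0, 98.6 and 100.3 CPM to 1754, 1688 and 1645. HAS2, the enzyme that makes hyaluronan in the early heart, rose from 7.69, 4.92 and 6.15 CPM to 1179, 1162 and 1163 (7.54, SE 0.52). PRTG, a cell surface protein of early mesoderm and neural tissue, reached 1383, 1110 and 975 CPM from 49.99 to 63.3. KRT19, a keratin of simple epithelia, reached 1125, 1141 and 1258 CPM from 130 to 143. In the list of laminins, integrins and matrix 11 of 32 genes rose and 6 fell (median -0.04), and on log2(TPM + 1) 10 rose and none fell among 29. COL4A2, among the rises on counts, lost its call when any 1 of the 6 wells was left out (adjusted p 0.0870 to 0.126).

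The cells' own laminin transcripts are read here beside the laminin coat, which is protein added to the well. LN-521 and LN-221 carry the products of LAMA5 and LAMA2, each with those of LAMB2 and LAMC1. LAMA5 was at 191, 206 and 188 CPM at day 0 and 103, 134 and 110 at day 3 (-0.76, SE 0.46, adjusted p = 0.24), and LAMA2 changed by -0.67 (SE 0.33), neither called. LAMB2 changed by 0.11 (SE 0.34) and LAMC1 by 0.72 (SE 0.23), under the fold asked. LAMA1 and LAMB1, chains of the early embryonic laminin, did rise, LAMA1 from 170, 171 and 169 CPM to 729, 623 and 632 (1.96, SE 0.37) and LAMB1 from 83.3, 84.1 and 79.2 to 310, 323 and 337 (1.98, SE 0.28). The laminin receptor subunit ITGA6 fell from 240, 222 and 225 CPM to 98.4, 81.0 and 109 (-1.25, SE 0.31), a call lost on log2(TPM + 1) (adjusted p = 0.147). Its partner ITGB1 was at 463 to 486 and 497 to 618 CPM and was not called.

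HOX genes, which give cells their position along the body, were nearly silent at day 0 and 14 of 24 tested rose, with none lower. On log2(TPM + 1) with no filter 3 of 24 were called (median 0.21), and a filter of 1 CPM left 5 to test, all higher. The median log2 change on counts was 4.84, or 3.43 with the 5 tested genes at 0 counts at day 0 set to their bound. The summed level of all 27 genes was 0.483 to 0.839 CPM at day 0 and 37.02 to 98.8 at day 3. The HOXB cluster (chromosome 17, hg38, from HOXB1 at 48528526 to HOXB9 ending at 48626356) held most of it. HOXB1, at its 3′ end, went from 0.201, 0.0998 and 0 CPM through 1.12 to 1.93 at day 1 to 40.0, 20.0 and 13.2 (7.84, SE 0.89). Per transcript length, the day 3 levels were 8.96 ± 4.63 TPM for HOXB1, 5.34 ± 1.64 for HOXB2, 4.10 ± 1.52 for HOXB3 and 0.627 ± 0.310 for HOXB4 (SD, n = 3 each). HOXB5 to HOXB9 lay between 0.173 and 0.747 TPM. The means ± SD of HOXB1, HOXB2 and HOXB3 overlapped, while the genes from HOXB4 on were lower. The genes were measured in the same wells, and their order within wells was not tested. Several of these genes overlap each other or an antisense gene, which makes single values uncertain. The 7 called HOX genes with at least 1 CPM at day 3 were all highest in well 1.

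Metallothioneins are small metal-binding proteins whose genes answer to zinc through the factor MTF1, and 7 of 8 fell while MT3 was not called (median -6.64). MT1X was at 81.3, 88.2 and 87.0 CPM at day 0, 16.6, 10.7 and 16.7 at day 1, and 1.03, 1.15 and 1.25 at day 3 (-6.22, SE 0.70, adjusted p = 7.5e-09). MT1G was at 29.5, 27.3 and 32.4 CPM, then 6.70, 5.66 and 5.36, then 0.0795, 0.0745 and 0.226. MT1H was at 24.0, 24.9 and 27.2 CPM, then 5.09, 7.65 and 4.95, then 0.119, 0 and 0.0755, which is 5 counts in all at day 3 against 2250 at day 0. MT2A had 1169 counts at day 0 and 6 at day 3, MT1E 1429 and 9, and MT1F 1351 and 18. The summed level of the 8 genes was 178 to 194 CPM in the day 0 wells and 1.87 to 1.96 in the day 3 wells, without overlap. MT1M (-3.64) had 62 counts at day 0 and lost its call without day 0 well 1 or 3 or day 3 well 2 or 3 (adjusted p 0.0596 to 0.126). The genes are close copies, so reads may have been shared among them. The metal content of the media is not given in the sources used here.

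**Figure D5:**
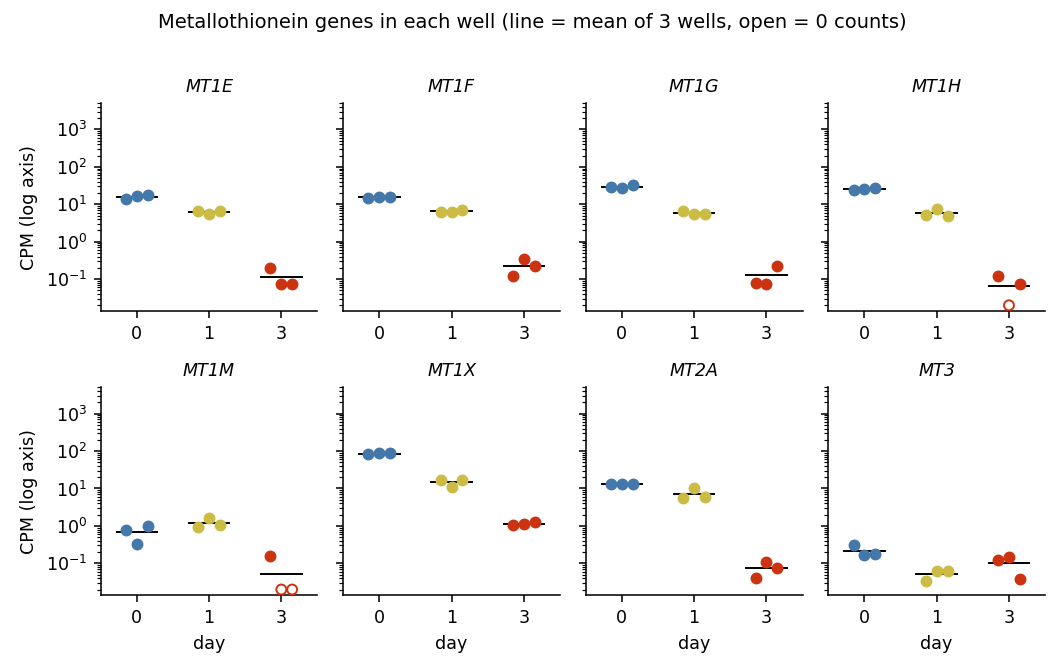
CPM (log axis) of 8 metallothionein genes in each well at days 0, 1 and 3, with a line at the mean of 3 wells and open circles for wells with 0 counts. MT1X drops from 81.3 to 88.2 CPM at day 0 to 1.03 to 1.25 at day 3, and the mean of every gene but MT1M is already lower at day 1.

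The promoters of this cluster on chromosome 16 are shown because the genes moved together. MTF1 recognises metal response elements, whose core is TGCACNC or TGCGCNC, here searched on both strands with overlapping matches merged. Of the 8 genes, MT2A, MT1H and MT1X were matched in the RefSeq table (GRCh38.p14). Their 250 bases before the start held 7, 8 and 4 matches. Of 34943 such windows 24.81% held at least 1 and 1.045% at least 3. The windows of MT2A (chr16:56608334-56608583), MT1H (chr16:56669564-56669813) and MT1X (chr16:56682220-56682469), all on the plus strand, follow 5′ to 3′ with the matches in capitals. They describe letters and not binding.
MT2A: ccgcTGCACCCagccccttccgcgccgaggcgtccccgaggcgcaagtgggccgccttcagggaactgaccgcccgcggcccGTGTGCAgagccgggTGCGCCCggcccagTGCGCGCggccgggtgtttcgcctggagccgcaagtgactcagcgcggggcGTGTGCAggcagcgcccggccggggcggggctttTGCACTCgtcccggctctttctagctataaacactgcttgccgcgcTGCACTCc
MT1H: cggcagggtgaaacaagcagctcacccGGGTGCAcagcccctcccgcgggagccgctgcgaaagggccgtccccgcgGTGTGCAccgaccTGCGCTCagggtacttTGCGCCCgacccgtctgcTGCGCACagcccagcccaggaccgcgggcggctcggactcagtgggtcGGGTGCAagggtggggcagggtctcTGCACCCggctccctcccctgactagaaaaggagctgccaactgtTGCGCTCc
MT1X: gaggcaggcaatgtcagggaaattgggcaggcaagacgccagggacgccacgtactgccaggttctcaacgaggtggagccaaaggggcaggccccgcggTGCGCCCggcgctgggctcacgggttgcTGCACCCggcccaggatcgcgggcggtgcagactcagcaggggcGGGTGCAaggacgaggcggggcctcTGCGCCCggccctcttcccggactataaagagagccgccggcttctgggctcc

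Of 24 cholesterol synthesis genes 8 fell and none rose (median -0.65), while 2 of 24 fell on log2(TPM + 1) and 5 without day 3 well 3. FDFT1, squalene synthase, went from 299, 322 and 326 CPM to 143, 120 and 114 (-1.33, SE 0.23). DHCR7, the last enzyme of the pathway, was at 71.6, 90.8 and 83.6 and 57.2, 43.1 and 35.6 CPM, and its change of -0.86 (SE 0.24) was under the fold asked. Of 23 glycolysis genes 1 rose and none fell, 4.35% against the 16.6% of all genes, and 1 fell without day 0 well 1 or day 3 well 3. LDHA, lactate dehydrogenase, was at 1371, 1295 and 1540 CPM at day 0, 404, 501 and 379 at day 1, and 1192, 1357 and 1670 at day 3, a net change of 0.00 (SE 0.25). The gene that rose was PDK1, a kinase that holds pyruvate back from oxidation in mitochondria, from 127, 112 and 121 CPM to 263, 299 and 350 (1.34, SE 0.31). Among 15 insulin and FOXO response genes 4 rose and 4 fell. Without day 0 well 1, 2 or 3 or day 3 well 1, the higher TXNIP and IGF2 and the lower PIK3IP1 lost their calls. That left 2 higher and 3 lower. IGFBP2, a secreted binder of insulin-like growth factors, fell from 668, 779 and 795 CPM to 127, 156 and 178 (-2.28, SE 0.33), and IRS1, an insulin receptor substrate, rose from 43.9, 46.2 and 43.2 to 134, 120 and 86.1 (1.35, SE 0.29).

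Of 32 cell cycle genes CCNE2 and CDK6 rose and CDKN2B fell (median -0.02), 9.38% of the list against 16.6% of all genes. CDK6, a G1 kinase, went from 50.7, 46.5 and 49.4 CPM to 248, 153 and 143 (1.89, SE 0.19). The proliferation marker MKI67 was at 147, 128 and 125 and 198, 198 and 174 CPM (0.51, SE 0.48, adjusted p = 0.49). CDKN2B (-1.998), a low-level CDK inhibitor gene, lost its call when any 1 of the 6 wells was left out (adjusted p 0.0622 to 0.151). Of 10 DNA methylation genes DNMT3B fell and TET2 rose, which is 20% of the list, near the 16.6% of all genes. DNMT3B, a de novo methyltransferase, had the largest loss of CPM of any called protein-coding gene, from 2088, 2173 and 2134 CPM through 992, 964 and 990 to 392, 370 and 373 (-2.49, SE 0.17, adjusted p = 6.3e-14). TET2, an enzyme that oxidises methylated cytosine, went from 10.7, 8.45 and 10.5 to 24.8, 26.4 and 28.8 CPM, a call lost on log2(TPM + 1) (adjusted p = 0.0513). The other large losses of CPM were CD24, a surface glycoprotein (1933, 1910 and 1869 to 657, 391 and 437), the deubiquitinase USP9X (1708, 1463 and 1449 to 346, 352 and 371), and UGP2, which makes UDP-glucose (947, 833 and 884 to 88.1, 72.5 and 84.0).

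Outside the lists, the largest changes by the naming rule added a few genes. SCGB1A1, a secretoglobin of airway club cells, had 0 counts in every day 0 and day 1 well and 4.89, 8.08 and 4.98 CPM at day 3, at least 59.0-fold higher against the floor of 3 counts per well. RASGRP3, an activator of Ras, rose from 0.470, 0.366 and 0.207 CPM to 85.6, 78.2 and 66.3 (7.76, SE 0.49), and the kinase-like gene PSKH2 from 0.0671, 0.0665 and 0.207 to 42.4, 46.9 and 53.5. NPTX1, a neuronal pentraxin, had the largest fall under the rule, from 333, 358 and 331 CPM through 2.39, 1.16 and 3.11 at day 1 to 1.07, 0.447 and 0.906 (-8.71, SE 0.72). IDO1, which degrades tryptophan, fell from 78.7, 72.7 and 71.5 CPM through 4.27 to 5.69 to 0.318, 0.149 and 0.151. CNMD, chondromodulin, went from 186, 175 and 180 through 40.6 to 41.9 to 2.15, 2.83 and 3.21 CPM, and SPP1, osteopontin, from 38.6, 32.9 and 36.0 to 0.755, 0.447 and 0.415.

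Among long non-coding RNAs, GATA6-AS1 rose from 0.436, 0.166 and 0.138 CPM to 22.8, 15.005 and 12.8 (6.06, SE 0.54). It overlaps GATA6 on the other strand, and use of strand in the counting is not given in the sources used here. PCAT14 (2.95, 3.59 and 3.21 to 215, 106 and 110 CPM) and LINC01356 (2.92, 0.898 and 1.42 to 33.6, 45.3 and 47.6) were the other large rises. JAKMIP2-AS1 fell from 29.6, 29.7 and 24.5 CPM to 5 counts in all. LINC00599 fell from 64.1, 66.5 and 63.6 to 1.43, 1.90 and 1.51, and LNCPRESS1, a non-coding RNA of pluripotent cells, from 14.8, 12.4 and 15.1 to 0.517, 0.223 and 0.566.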

How the data were processed

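RNA was sequenced from wells of H1 cells. Per the submitters' processing notes, reads were trimmed with cutadapt, aligned to hg38 with STAR 2.5.2b and quantified with RSEM 1.2.31. RNA integrity scores are the authors' deposited values. The authors deposited estimated counts, of which 93.8% were whole numbers, and TPM values; the annotation they used and the use of strand are not given in the sources used here. Counts were rounded to whole numbers. Of 60499 identifiers 56769 were named through GENCODE 29.

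Genes were kept by edgeR's filterByExpr, scaled by TMM and fitted in edgeR 4.0.16 (R 4.3.3) with 1 mean per group over all 44 libraries, so the spread is shared with later days. Wells of later days differed more, with a biological coefficient of variation of 57.9% at day 30. Fitted on the day 0 and day 3 libraries only, 19 named genes were called that were not called here. The contrast was day 3 minus day 0, with Benjamini-Hochberg adjustment over the 22955 genes tested. Alternatives used DESeq2 1.42.0, limma 3.58.1 on log2(TPM + 1) or log2(TPM + 0.1), other filters, fewer libraries, a lane term and wells left out. On simulated data for this comparison and its 22955 genes, 82% of 100 genes changed 3-fold and 95% of 100 changed 8-fold were called, with 9 unchanged genes called. The changed genes were drawn only from genes well counted at day 0, so these shares do not cover genes with few counts at day 0.

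The comparison and the gene lists were chosen with earlier results of these data known. Besides the lists, the text names the 10 called protein-coding genes in each direction with the largest log2 change (with 10 TPM or more on average at the higher day and wells not overlapping), the 5 with the largest CPM difference, and 3 long non-coding RNAs in each direction. Named genes that overlap another tested gene, and so are uncertain, include POU5F1, SOX2, GATA6, FBN2, HAS2, FOXD3, PDK1, PSKH2, JAKMIP2-AS1 and the HOXB genes. Values of a few list members are not reported here.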

Additional observations from a re-analysis of the deposited data

How the results depend on the processing

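Against 3803 genes called, 1471 were called by limma on log2(TPM + 1), 1720 on log2(TPM + 0.1) and 1630 on log2(TPM + 1) with no filter, of which 71.4%, 73.4% and 65.9% were higher. These fits tested fewer of the called genes, or compressed low levels. They also had no scaling for composition, and protein-coding genes took 30.3% of TPM at day 0 and 39.0% at day 3. What this did to the calls was not tested. The other count-based settings gave 3258 to 4669 genes, and leaving out each replicate well gave 3229 to 3348. Using only the lane-matched wells 1 and 3 of both days, an alternative chosen after seeing the data, gave 2730. List members called numbered 215, 195 to 200 with a well left out and 150 to 229 over all alternatives. Of the 235 named genes called, 28 lost the call without at least 1 well, 63 in at least 1 TPM fit and 32 in another alternative, and none turned sign with a call. Whether replicate numbers pair the wells is not given in the labels, and 3 wells a day are too few to tell. Deviations of same-numbered wells correlated at -0.0234, 0.266 and 0.0459, and 1 of 3 day 0 wells was closest to its own number. With the replicate block 3696 genes and 208 list members were called. Levels under 0.119 CPM, or 3 counts, were not resolved at this depth.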

Other observations

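The day 3 wells differed among themselves in groups of genes, a pattern seen after the values were known and given without a test. Well 1 was the highest of 3 for 7 of the 7 called HOX genes with at least 1 CPM at day 3 and for 7 of 8 such cholesterol synthesis genes. It was the lowest for 5 of 6 called paraxial mesoderm genes and for 7 of 10 called endoderm genes. MYL4 was at 55.9, 16.6 and 12.0 CPM in wells 1, 2 and 3 and HAND2 at 20.0, 5.92 and 5.85, while FOXC1 was at 30.4, 69.3 and 82.0 and EOMES at 59.7, 97.7 and 148. The wells were sequenced on lanes 1, 2 and 3.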
